A study of Mus musculus with 2 samples.

Results

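Cholesterol synthesis, sensing, uptake, esterification and efflux were followed in mouse liver through 37 genes with known roles in them. The genes were chosen with earlier results of these data known. A gene was found on the array where the platform annotation gave a probe set exactly its symbol, and its brightest probe set by the mean of the arrays stood for the gene. By this rule 34 of the 37 genes were found, out of 18193 genes on the array, with 72 probe sets between them. Acat2, Soat1 and Soat2 had no probe set under their own symbol in the annotation used, so their expression was not analysed here. A gene was called measured at a mean log2 value of at least 6, which 33 of the 34 passed. Npc1l1 did not, with 5.05 and 4.85, and the nearest member above the minimum was Ggps1, with a mean of 6.60.

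The mice were wild type (Yap+/+) or heterozygous for Yap1 (Yap+/-), the gene of the Hippo pathway co-activator YAP, and no tissue-specific driver is named in the labels. Both genotypes were untreated, on a C57BL/6 background after at least 6 generations of breeding, and were killed on postnatal day 30. The labels name neither sex, feeding nor hour of death. The livers of 5 mice per genotype were pooled and each pool was read on 1 Affymetrix array. Each value is therefore a single measurement of a pool, without replicates and without a test, and differences are taken as Yap+/- minus Yap+/+ on the log2 scale, with the Yap+/+ value named first throughout. Both probe sets of Yap1 were slightly lower in the heterozygous pool, at 9.40 and 9.24 for the brighter and 6.01 and 5.77 for the dimmer.

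Liver makes cholesterol from acetyl-CoA through mevalonate, isoprenoids, squalene and lanosterol. Low sterol in the endoplasmic reticulum lets SCAP carry SREBP transcription factors to the Golgi, where they are released to activate the genes of synthesis, and INSIG proteins hold the complex back when sterol is plentiful. Surplus sterol is esterified, loaded onto lipoproteins or secreted into bile, and several exporters are activated by the oxysterol receptor LXR. Sequences upstream of synthesis genes often pair a sterol regulatory element with sites for NF-Y (CCAAT box) or Sp1 (GC box).

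The promoters of 4 members are given with matches to such elements marked. They run from 250 bases before to 50 after the start in RefSeq on GRCm38.p6, written on the strand of the gene. Hmgcs1 (chr13:119690101-119690400, plus strand) was taken as the member with a match to the sterol regulatory element. Mvd (chr8:122443373-122443672, minus strand) and Msmo1 (chr8:64733529-64733828, minus strand) were among the synthesis genes with the largest differences, and Abca1 (chr4:53159846-53160145, minus strand) is an exporter that read the other way. The genes were picked after their values were seen. Capitals mark, on either strand, the sterol regulatory element searched as TCACNCCAC, the box named by its own letters CCAAT, the GC box searched as GGGCGG and the E box searched as CACGTG. In these windows 0 of the matches overlapped.
Hmgcs1: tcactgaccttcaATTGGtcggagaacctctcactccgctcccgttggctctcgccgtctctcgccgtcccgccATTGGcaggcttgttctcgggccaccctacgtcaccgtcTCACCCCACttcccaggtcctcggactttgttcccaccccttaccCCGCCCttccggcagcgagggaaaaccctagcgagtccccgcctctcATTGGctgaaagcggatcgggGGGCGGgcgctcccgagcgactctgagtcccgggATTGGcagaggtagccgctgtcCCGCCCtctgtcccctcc
Mvd: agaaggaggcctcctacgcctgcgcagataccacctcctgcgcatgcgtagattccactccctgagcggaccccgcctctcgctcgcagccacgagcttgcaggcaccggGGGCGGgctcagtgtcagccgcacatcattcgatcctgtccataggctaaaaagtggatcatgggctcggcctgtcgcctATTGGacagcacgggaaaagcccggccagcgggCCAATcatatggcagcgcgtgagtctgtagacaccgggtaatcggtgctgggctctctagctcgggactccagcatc
Msmo1: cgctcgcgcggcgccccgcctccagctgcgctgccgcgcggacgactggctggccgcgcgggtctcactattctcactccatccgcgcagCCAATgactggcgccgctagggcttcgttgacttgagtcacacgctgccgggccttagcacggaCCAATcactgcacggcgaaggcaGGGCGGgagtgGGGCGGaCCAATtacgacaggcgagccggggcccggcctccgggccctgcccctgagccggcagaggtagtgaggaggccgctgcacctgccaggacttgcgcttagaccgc
Abca1: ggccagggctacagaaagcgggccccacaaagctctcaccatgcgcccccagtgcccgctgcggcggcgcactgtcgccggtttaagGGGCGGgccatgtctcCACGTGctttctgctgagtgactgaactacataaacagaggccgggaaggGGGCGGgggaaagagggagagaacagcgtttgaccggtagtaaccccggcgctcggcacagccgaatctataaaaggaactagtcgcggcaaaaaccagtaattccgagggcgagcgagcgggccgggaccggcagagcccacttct

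The Hmgcs1 window held the sterol regulatory element, with its first base 137 bases before the start, together with 4 CCAAT boxes and 3 GC boxes. Mvd had 2 CCAAT boxes and 1 GC box, and Msmo1 had 3 and 2. Abca1 had 2 GC boxes, 1 E box and no CCAAT box. The windows of Mvd, Msmo1 and Abca1 held no match to the sterol regulatory element, so they do not show it paired with these boxes. RefSeq promoters were matched for 29 of the 37 genes, whether or not their expression was measured. The 17 synthesis genes below include Acat2, and the 7 genes of the other class include Soat1 and Npc1l1. Fdps, Fdft1, Sqle, Scarb1 and Abcg1 had no promoter and are absent. These sets are therefore not the measured sets used for expression. A gene counted once, with a match in any of its promoters. A CCAAT box was found in 16 of 17 synthesis genes and in 6 of 7 genes of uptake, esterification and efflux. The shares were 42.8% of measured genes with a promoter and 41.1% of all 27025 genes with a promoter. It was therefore common in both classes. GC boxes were in 15 of 17 and 3 of 7, against 69.2% of measured genes and 38.2% of all genes with a promoter. E boxes were in 3 of 17 and 1 of 7, against 12.2% and 8.09%. The sterol regulatory element, spelled strictly, was in 1 of 17 and 0 of 7, against 1.47% and 1.44%. These are matches of letters in a short window and not sites shown to be bound.

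Synthesis genes read lower in Yap+/- liver, by small amounts. Of 19 measured synthesis genes, 15 were lower and 4 higher, with a median log2 difference of -0.19. Across all 9299 measured genes 49.6% were lower, and the median was 0.00. At least 1.2-fold lower were 5 of the 19, Fdps, Mvd, Msmo1, Nsdhl and Hsd17b7, against a background of 5.45%, and none was 1.2-fold higher, against 6.02%. At 1.1-fold 13 of the 19 were lower, against 18.0% of measured genes, and at 1.5-fold 0 were, against 0.645%. No member of any class differed by 2-fold, as 0.323% of measured genes did. To judge these sizes, differences of measured genes scattered with a robust SD of 0.15, and the brightest pair of probe sets of a gene disagreed with a robust SD of 0.17. Whether fewer hepatocytes or less messenger RNA per hepatocyte was present cannot be told apart in whole liver. Hepatocyte markers hardly differed, with a median of 0.0075 over 8 measured of 10 listed, a range from -0.10 to 0.067 and values of at least 13.8 on both arrays, near the top of the table at 15.2, where a difference shows poorly.

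**Figure D1:**
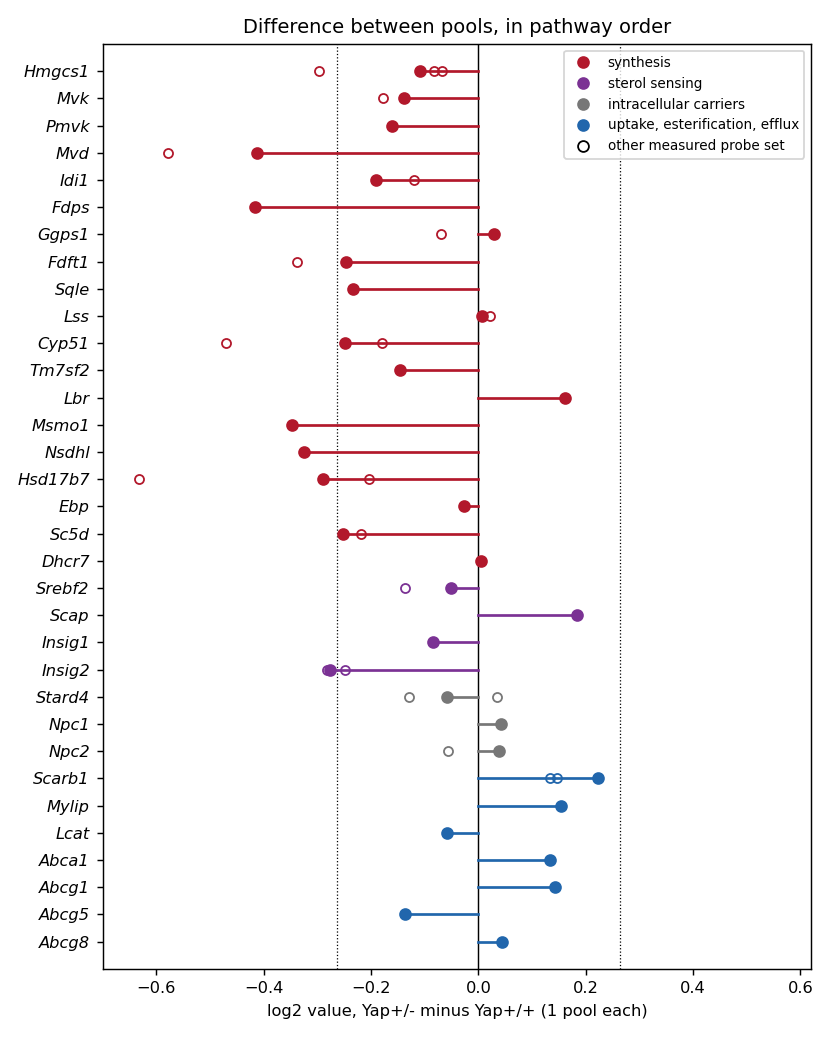
Log2 difference between the Yap+/- and Yap+/+ pools for the 33 measured genes in pathway order. Filled points are the brightest probe set of each gene, open points its other measured probe sets, and dotted lines mark 1.2-fold; 15 of the 19 synthesis genes lie left of 0 and 5 lie beyond the left dotted line.

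The first steps, from HMG-CoA synthesis to the prenyl diphosphates, were lower in 6 of 7 measured genes, with a median of -0.16. Hmgcs1, which condenses acetoacetyl-CoA and acetyl-CoA to HMG-CoA, read 13.33 in Yap+/+ and 13.22 in Yap+/-. Its difference of -0.11 was within the usual disagreement of probe sets, and 3 other measured probe sets gave -0.07, -0.08 and -0.30. Mvk, mevalonate kinase, read 8.16 and 8.02, and Pmvk, which adds the next phosphate, read 9.65 and 9.49. These 3 enzymes were 1.08-fold, 1.1-fold and 1.12-fold lower.

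Mvd, the decarboxylase that forms isopentenyl diphosphate, stood further apart. Its values were 7.59 in Yap+/+ and 7.17 in Yap+/-, or 1.33-fold lower, on a probe set whose suffix marks possibly shared targets. The other probe set, without a suffix, gave 7.47 and 6.89, a difference of -0.58. Only 1.66% of measured genes had a lower difference than its brighter probe set. Idi1, the isomerase of isopentenyl diphosphate, read 12.02 and 11.83, 1.14-fold lower, and its other probe set gave -0.12.

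Fdps, which makes farnesyl diphosphate at the branch between sterols and other isoprenoids, read 11.53 in Yap+/+ and 11.11 in Yap+/-. It was 1.33-fold lower, with 1.62% of measured genes below it, and its other probe set lay far under the minimum at 2.88 and 2.97. Ggps1, which extends farnesyl to geranylgeranyl diphosphate for protein prenylation, did not share this. It read 6.59 and 6.62 on the brightest probe set and 6.42 and 6.35 on the second, with opposite signs. Both carry the suffix for possibly shared targets. A further 2 probe sets under the minimum gave -0.40 and -0.69, so its direction is unsettled.

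Between farnesyl diphosphate and lanosterol, Fdft1 and Sqle were lower and Lss was level. Fdft1, squalene synthase, read 11.61 in Yap+/+ and 11.36 in Yap+/- on a probe set whose suffix marks possible cross-hybridisation, 1.19-fold lower. A probe set of Fdft1 without that suffix read 10.35 and 10.01, a difference of -0.34. Sqle, the epoxidase of squalene, read 9.62 and 9.39, 1.18-fold lower. Lss, the cyclase that closes the sterol rings, read 8.95 and 8.96 on a probe set with the suffix for possibly shared targets. Its second probe set, without a suffix, read 7.75 and 7.77.

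From lanosterol to cholesterol, 7 of 9 genes were lower, with a median of -0.25. Cyp51, the lanosterol demethylase, read 10.32 in Yap+/+ and 10.07 in Yap+/-, 1.19-fold lower, and its other probe sets gave -0.18 and -0.47. The 2 sterol reductases that act next, which are related proteins, went opposite ways. Tm7sf2 read 11.34 and 11.19, 1.11-fold lower, whereas Lbr, also an inner nuclear membrane receptor for lamin, read 8.53 and 8.69, 1.12-fold higher. Each has a single probe set, and both differences are smaller than the disagreement of 0.17 between probe sets.

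The enzymes that remove the methyl groups at carbon 4 were lower together. Msmo1, the methyl oxidase, read 11.64 in Yap+/+ and 11.29 in Yap+/-, 1.27-fold lower. Nsdhl, the decarboxylating dehydrogenase, read 10.38 and 10.06, 1.25-fold lower. Hsd17b7, the ketoreductase of this complex, read 10.47 and 10.18, 1.22-fold lower, on a probe set whose suffix also marks possible cross-hybridisation. Its other measured probe sets gave -0.20 and -0.63, and the brighter of these, 1.15-fold lower, does not pass 1.2-fold. These 3 genes and Mvd and Fdps are the 5 synthesis genes past 1.2-fold on their brightest probe sets.

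The last steps were mixed. Ebp, the sterol isomerase, read 12.42 and 12.39. Sc5d, the desaturase that follows it, read 12.69 in Yap+/+ and 12.44 in Yap+/-, and its second probe set read 10.10 and 9.88. At 1.19-fold lower Sc5d lay just short of the 1.2-fold mark, as did Cyp51 and Fdft1. Dhcr7, which reduces the last ring double bond, read 10.26 on both arrays. The smaller differences were thus Lss, Ebp and Dhcr7, each under 1.02-fold.

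**Figure D2:**
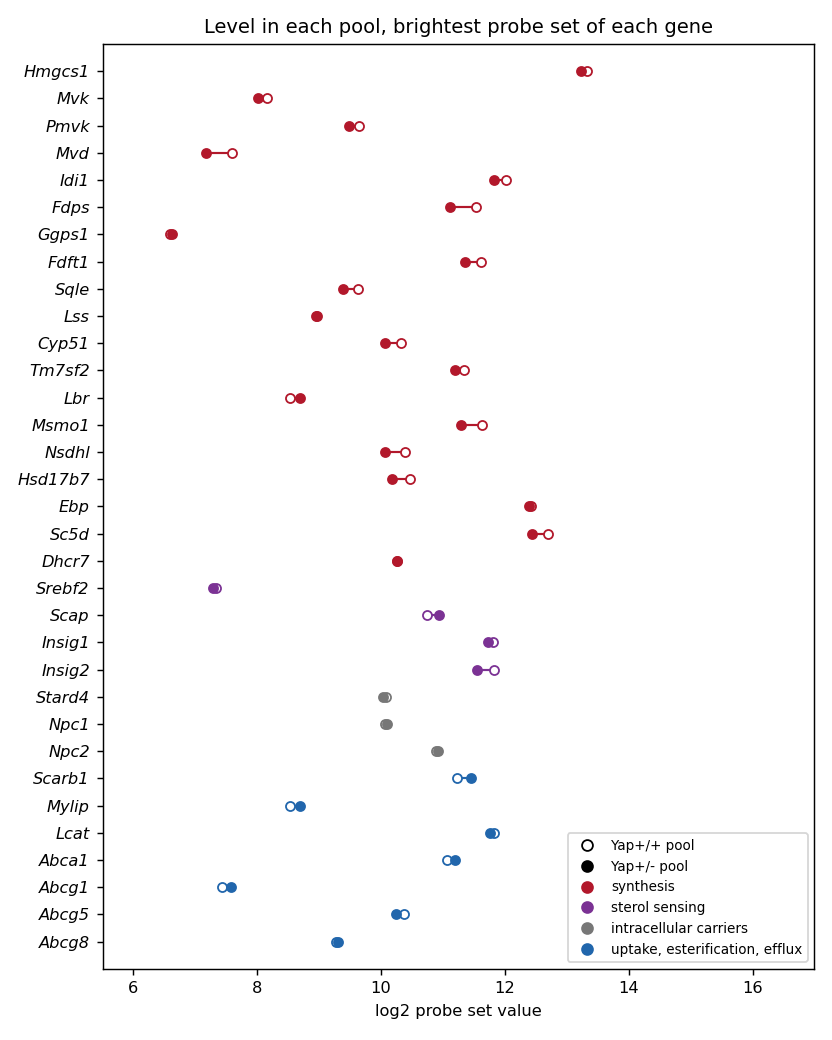
Log2 value of the brightest probe set of each of the 33 measured genes in the Yap+/+ pool (open) and the Yap+/- pool (filled), 1 array each. Positions of different genes are not comparable, because probe sets differ in sensitivity; Fdps and Mvd show the widest gaps, both 1.33-fold.

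Other probe sets of the synthesis genes mostly had the same sign. Of 14 further measured probe sets from 10 synthesis genes, 13 had the sign of the brightest, and 13 were lower, with a median of -0.19. The exception was the second probe set of Ggps1. Over all genes with more than 1 measured probe set, 59.1% of 5138 further probe sets had the sign of the brightest. Of these 5138, 2660 were lower, with a median of -0.01. Equal sign also depends on the size of the difference, so the 59.1% does not come from like genes. Probe sets of a gene share the RNA of the same 2 pools, so they are not replicates of the genotype.

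**Figure D3:**
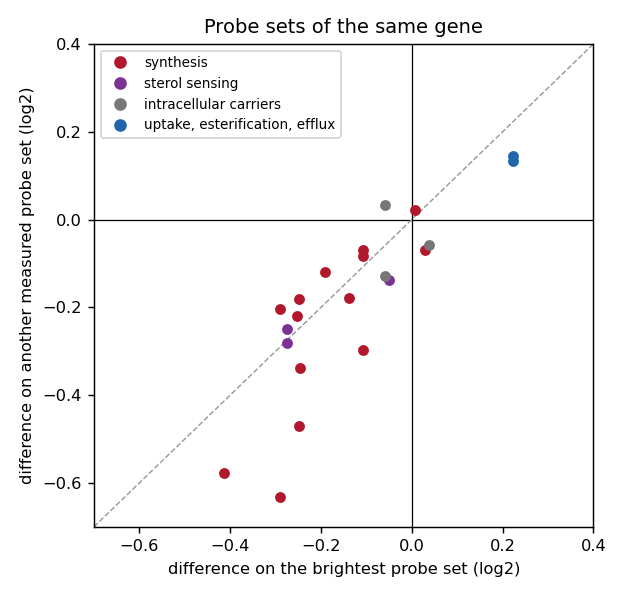
Difference on each further measured probe set (vertical, log2) against that on the brightest probe set of the same gene (horizontal, log2), 22 probe sets of 15 genes; the dashed line is equality. Of the synthesis points 13 of 14 lie in a quadrant of equal sign, and Hsd17b7 has the lowest point at -0.63.

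Sterol sensing genes were split. Srebf2, which encodes the SREBP most tied to sterol synthesis, read 7.33 in Yap+/+ and 7.28 in Yap+/-, and its second probe set gave -0.14. Scap, its escort, read 10.75 and 10.93, 1.14-fold higher. Insig1, itself an SREBP target, read 11.81 and 11.73, 1.06-fold lower. Insig2, which has a liver transcript that insulin lowers, read 11.83 and 11.55, 1.21-fold lower, and its other probe sets read 11.79 and 11.54, and 11.43 and 11.14. All 3 Insig2 probe sets thus lay between -0.28 and -0.25, and it was the sixth and last member past 1.2-fold, with 4.88% of measured genes below it. It lay at the mark, at 1.1986-fold once each array was centred on its median. The median of the 4 sensing genes was -0.07.

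Intracellular carriers were level. Stard4, a cytosolic sterol carrier, read 10.08 in Yap+/+ and 10.02 in Yap+/-, and its other probe sets gave -0.13 and 0.03. Npc1 and Npc2 hand cholesterol out of lysosomes. Npc1 read 10.06 and 10.10, and Npc2 read 10.89 and 10.92 on its brightest probe set and 10.77 and 10.71 on the next, with opposite signs. Differences of this size, at most 0.06 on the brightest probe sets, are well within the disagreement between probe sets.

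Genes of uptake, esterification and efflux had a median slightly above 0. The median difference of the 7 measured members was 0.13, with 5 above 0 and 2 below, where 49.6% of all measured genes were below 0. None was past 1.2-fold in either direction, and with 7 genes the background shares of 5.45% and 6.02% would give about as few. The synthesis median lay 0.32 below this median on the log2 scale, a difference of -0.32 for which no test exists with 1 pool per genotype. The mean over the 7 genes was smaller than their median, at 0.07.

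Scarb1, the receptor for selective uptake of HDL cholesterol, had the largest difference of the class. It read 11.23 in Yap+/+ and 11.46 in Yap+/-, 1.17-fold higher, above 91.5% of measured genes. Its other probe sets read 10.96 and 11.10, and 9.86 and 10.01, both higher. The brightest probe set and the first of these carry the suffix that marks possible cross-hybridisation. No Scarb1 probe set is free of a suffix, so the gene drops out where suffixed probe sets are left out. The median of the class was then 0.09 over 6 genes. Mylip, a ubiquitin ligase induced by LXR that marks lipoprotein receptors for breakdown, read 8.53 and 8.69, 1.11-fold higher. Npc1l1, a sterol importer of the apical membrane, was below the minimum on both arrays, so its difference is not interpreted.

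Lcat is a plasma enzyme made by hepatocytes that esterifies HDL cholesterol. It read 11.82 in Yap+/+ and 11.76 in Yap+/-, 1.04-fold lower, and was the only esterification gene measured.

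The exporters differed little. Abca1, which loads cholesterol onto apolipoprotein A-I, read 11.06 in Yap+/+ and 11.19 in Yap+/-, 1.1-fold higher, and Abcg1, which feeds mature HDL, read 7.43 and 7.57, also 1.1-fold higher. Abcg5 and Abcg8 form 1 transporter that secretes sterol into bile. Abcg5 read 10.38 and 10.24, 1.1-fold lower, while Abcg8 read 9.27 and 9.31, 1.03-fold higher. The subunits therefore did not share a direction, and both differences lay within the disagreement between probe sets.

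**Figure D4:**
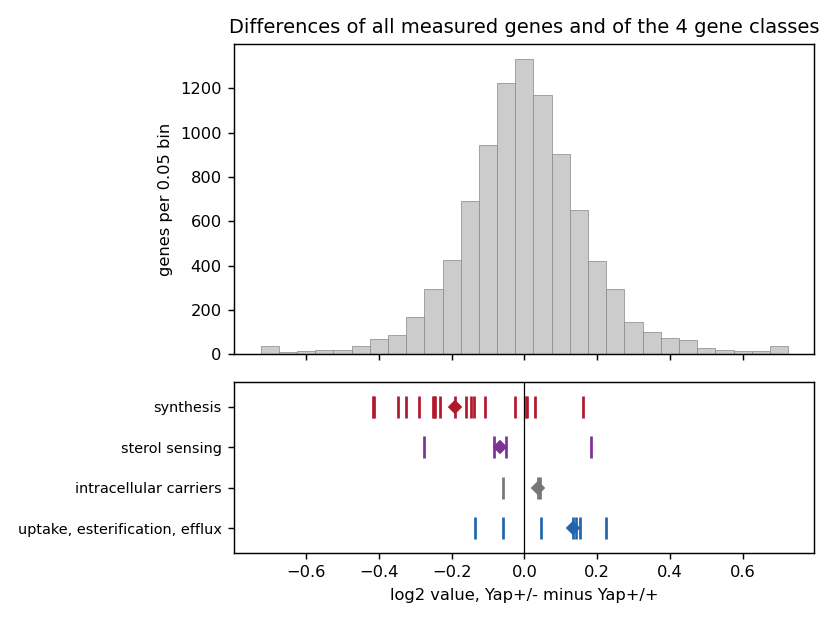
Upper panel, number of the 9299 measured genes per bin of the log2 difference between pools, with values beyond the axis gathered in the end bins. Lower panel, each measured member as a tick and the median of its class as a diamond, at -0.19 for synthesis and 0.13 for uptake, esterification and efflux.

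Markers of other liver cells also differed between the pools. All 15 Kupffer cell and macrophage markers were higher in Yap+/-, by 0.13 to 0.62 on the log2 scale, 9 of them by at least 1.2-fold. Across all 9299 measured genes 49.6% were lower and 6.02% were at least 1.2-fold higher. The log2 of the summed signal of the 15 markers was 13.5 in Yap+/+ and 13.8 in Yap+/-. Abca1, Abcg1, Mylip and Npc2 are also expressed by macrophages. The part of these cells in the values of any member, Scarb1 included, was not tested. Sinusoidal endothelial markers were higher in 6 of 7 measured of 8 listed, with a range from -0.03 to 0.29 and a log2 summed signal of 12.1 and 12.3. The part of endothelial cells in the members' values was not tested either. Stellate markers had a median of 0.0005 over 5 genes, with a range from -0.08 to 0.31 and a summed signal of 12.4 on both arrays. Of 5 bile duct markers 4 were found and none had a mean of at least 6. Among them Krt19, a duct keratin, was above that level in Yap+/+ alone, at 6.73 against 4.83, nominally 3.74-fold lower in Yap+/-, while Krt7 read 4.88 and 4.72, Epcam 5.35 and 5.23, and Sox9 5.56 and 5.81. The part of duct cells in the members' values was not tested. In control transcripts the 3-prime probe set exceeded the 5-prime one by more in Yap+/- than in Yap+/+, with gains of 0.20 (beta-actin), 0.21 (pyruvate carboxylase) and 0.22 (Gapdh) on the log2 scale, and the part of RNA or labelling quality in the differences was not tested.

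Other genes of sterol and isoprenoid metabolism had a median difference close to 0. Of 40 listed genes 33 were found and 31 measured, with 12 lower, 19 higher and a median of 0.01. None was 1.2-fold lower, against 5.45% of all measured genes, and 2, or 6.45%, were 1.2-fold higher, against 6.02%, which is the background share. Fntb, a subunit of the enzyme that farnesylates proteins, read 6.46 in Yap+/+ and 6.87 in Yap+/-, 1.33-fold higher. Its mean of 6.67 lay near the minimum of 6, where values are less certain. Rnf145, a sterol-responsive ubiquitin ligase, read 8.64 and 8.97, 1.26-fold higher, and Pltp, which transfers phospholipid between lipoproteins, read 9.13 and 9.37, 1.18-fold higher. On the other side, Dhdds, which elongates farnesyl diphosphate towards dolichol, read 8.11 and 7.88, 1.17-fold lower. Srebf1, the SREBP gene most tied to fatty acid synthesis, read 10.50 and 10.29, 1.16-fold lower, and Lipa, the lysosomal acid lipase that frees cholesterol from its esters, read 10.51 and 10.34, 1.13-fold lower.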

How the data were processed

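Liver RNA of 1 pool per genotype was labelled from the 3-prime end and read on 1 array each. The authors deposited a log2 value per probe set, computed with RMA and Partek 6.5 per the submitters' processing notes, whose settings are not stated there. There were 45101 probe sets, from 2.49 to 15.2, and sorted columns differed by at most 0.047, so an overall RNA difference would be largely removed. Detection calls were not used here, and the number of arrays limits precision.

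Probe sets with exactly 1 symbol in the platform annotation, 34945 in number, were reduced to the brightest per gene. Measured meant a mean log2 of at least 6, and counts used 1.2-fold and 2-fold. No test was possible. The members, lists and thresholds were chosen with earlier results of these data known. All 37 members are named, with the 3 largest differences per direction of a list of related genes. The 4 motifs and the promoters shown were chosen after the values were seen. Counting was tested on simulated data with 1.5-fold shifts and less scatter than observed, an easier setting than these data. Alternatives varied the filter, the probe set, the scaling, an added constant of 64, the threshold and the largest member. Work was done in Python 3.11.15 with pandas 2.3.3, numpy 2.4.6, matplotlib 3.10.9 and statsmodels 0.14.6.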

Additional observations from a re-analysis of the deposited data

How the results depend on the processing

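Of 47 recomputed class medians and counts, 43 stayed close to the value given, meaning within the standard error of a median at the probe set disagreement of 0.17 or, for counts, within 1.5 times, and neither the synthesis median nor that of uptake, esterification and efflux changed sign. Of the other classes, recomputed after the data were seen, sterol sensing stayed between -0.09 and -0.05, and the carriers, at 0.04, gave -0.06 on probe sets without a suffix. The synthesis median ranged from -0.21 to -0.16. With the mean of all probe sets per gene the median of uptake, esterification and efflux was 0.045 and the gap between the classes -0.20, where the other alternatives gave 0.09 to 0.15 and -0.34 to -0.26. That setting adds dim probe sets of Abca1 and Abcg1. Of the 19 synthesis genes 13 (background 18.0%) were lower at 1.1-fold and 0 (background 0.645%) at 1.5-fold. The 1.2-fold call was lost for Insig2 with centring, for Hsd17b7 without suffixed probe sets and for Fdps and Msmo1 with all probe sets averaged, and gained for Fdft1 without suffixed probe sets and Cyp51 with all averaged. Without suffixed probe sets Msmo1 also left the count, because its remaining probe set, with a mean of 4.90, lay under the minimum. Single members had the other sign in 3 of 258 recomputed values, those of Lss and Dhcr7 after quantile normalisation and Npc2 on probe sets without a suffix, all near 0. Many of the 258 could not change, because a filter only keeps or drops a gene. Averaging likewise leaves a gene with 1 probe set as it was. Some of the 47 class values could not move either, because centring shifts both classes alike and leaves their gap unchanged. A count of 0 at 1.2-fold must also stay 0 at 1.5-fold. Neither the count out of 258 nor that out of 47 is therefore a measure of stability. Fdps was -0.16 with its dim probe set averaged in. No paired analysis was possible because each genotype has 1 pool. Without replicates, the spread between mice or pools is unknown.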
